A study of Homo sapiens with 96 samples.

Results

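The nuclear lamina and its membrane partners were followed through 8 genes, LMNA, LMNB1, LMNB2, LBR, SUN1, SUN2, EMD and TMPO, out of 19438 genes in the deposited tables. They were taken by name as a functional group, chosen by their total RNA and footprint levels in knockdown cells, where LMNB1 was low and SUN2 made a wave. Those differences are therefore given as descriptions, with no p-value for a member in either assay. Where calls on them are counted, the share of all genes stands beside them and nothing is read from the counts. All 8 genes passed the filter on low counts in every fit.

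The nuclear lamina is a mesh of intermediate filaments under the inner nuclear membrane, built of A-type lamins (LMNA) and B-type lamins (LMNB1 and LMNB2), and it gives the nucleus stiffness and tethers silent chromatin. LBR, emerin (EMD) and the membrane-bound products of TMPO hold lamins and chromatin to the membrane, and the SUN proteins cross it as the inner end of the bridge to the cytoskeleton. The mesh is taken apart and rebuilt at each mitosis, LMNB1 and LBR are high in proliferating cells, and low LMNB1 is a common mark of senescent cells.

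The cells were U2-OS, an osteosarcoma line of human origin, in a version with luciferase under the Per2 promoter. In both treatments the clock was reset with dexamethasone at 0.1 µM, and plates were harvested from 24.5 h later at intervals of 2 h for 1 day (circadian time CT00 to CT22, 12 times), after a short exposure to cycloheximide at 100 µg/mL to hold ribosomes on the mRNA. Total RNA and ribosome-protected fragments (footprints) were sequenced from wild-type cells, which had no siRNA, and from knockdown cells, which per their own descriptions were seeded more thinly (the growth protocol shared by all samples gives 1 density) and received 120 pmol of a pool of siRNAs against Bmal1, the clock activator listed as ARNTL. Each of the 48 groups of treatment, assay and time has 2 replicates, 96 libraries in all. No control siRNA is named in the labels, and the loss of BMAL1, transfection and seeding density cannot be told apart.

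Reads recovered from the deposited values numbered 13.6 to 20.1 M (1e+06 reads) in 46 of the libraries made from total RNA. The other 2, knockdown libraries of replicate 2 at CT14 and CT18, had 2.66 and 2.56 M. Footprint libraries held 2.50 to 5.82 M, with a median of 3.67 M against 16.3 M for total RNA. ARNTL total RNA was 32.5 ± 11.5 counts per M reads (CPM; SD, n = 24) in wild-type and 4.84 ± 0.710 CPM (n = 24) in knockdown libraries. Of 10 osteoblast markers, 9 had a read in wild-type and 10 in knockdown total RNA. Their sums were 1167 to 1466 CPM and 1297 to 1922 CPM. SP7, COL1A2, BGLAP and IBSP were at or near 0 in total RNA. From wild-type to knockdown total RNA, mean RUNX2 went from 15.5 to 10.5 CPM and COL1A1 from 180 to 177 CPM. SPARC went from 1035 to 1142 CPM, COL5A1 from 80.5 to 141, SPP1 from 12.3 to 34.5 and ALPL from 4.09 to 11.4 CPM. The blood markers PTPRC, CD3E and HBB were at or near 0 in both treatments, but CD68 rose from 2.09 to 12.8 CPM, and the summed level of the 4 blood markers was 1.57 to 3.38 CPM in wild-type and 9.84 to 17.6 CPM in knockdown total RNA. The 5 neuronal markers summed to 340 to 423 and 358 to 449 CPM, with SYP rising from 3.65 to 50.4 CPM, MAP2 falling from 25.8 to 10.9 CPM and RBFOX3 from 3.97 to 2.55 CPM. The 5 epithelial markers summed to 7.41 to 23.9 and 7.67 to 15.3 CPM, and the 2 endothelial markers to 1.75 to 4.14 and 0.430 to 1.52 CPM. The part of these markers in the results was not tested.

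The stretches upstream of 3 of the genes are shown because their time courses differ most in knockdown cells, and because BMAL1 with its partner binds E-boxes while many genes of the cell division programme carry CCAAT boxes and the CHR element. The sequences are from RefSeq (build GRCh38.p14), which holds an entry for 7 of the 8 genes with 13 annotated starts. Motifs of 4 kinds were searched on both strands in the 250 bases before each start: the E-box CACGTG, the CHR word TTTGAA, the box CCAAT and the E2F words TTTCCCGC, TTTGGCGC, TTTCGCGC and TTTGCCGC. The capitals mark the matches; CCAAT read on the opposite strand is ATTGG, and TTTGAA is TTCAAA. The windows are chr5:126776994-126777023 (plus strand) for LMNB1, chr12:98515323-98515572 (plus strand) for TMPO and chr22:38755999-38756248 (minus strand) for SUN2.
LMNB1: ccccATTGGcccatggtagtCACGTGgagg
TMPO: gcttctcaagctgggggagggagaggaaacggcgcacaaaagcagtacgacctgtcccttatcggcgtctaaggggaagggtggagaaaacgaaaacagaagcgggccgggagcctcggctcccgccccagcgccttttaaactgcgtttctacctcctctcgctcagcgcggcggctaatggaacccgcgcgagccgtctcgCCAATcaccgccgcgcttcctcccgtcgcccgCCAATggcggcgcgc
SUN2: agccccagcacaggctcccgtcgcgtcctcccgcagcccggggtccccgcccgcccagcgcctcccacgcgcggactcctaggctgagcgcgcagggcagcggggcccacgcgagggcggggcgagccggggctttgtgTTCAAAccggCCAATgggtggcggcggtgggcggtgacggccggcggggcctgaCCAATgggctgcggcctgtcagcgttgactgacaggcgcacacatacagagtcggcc

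The LMNB1 stretch holds 1 E-box and 1 reversed CCAAT box, before the second of its 2 annotated starts; the first had no match. TMPO holds 2 CCAAT boxes, and SUN2 holds 1 reversed CHR word and 2 CCAAT boxes before 1 of its 3 starts. Among the others, EMD had 2 CCAAT boxes, LMNA 1 CCAAT box and 1 E2F word at 1 of 3 starts, LMNB2 1 CHR word, and LBR none of these words. Of 35116 upstream windows of the same length, 6.34% held the E-box, 13.3% the CHR word, 32.0% CCAAT and 2.79% an E2F word. These are matches of letters only, and binding was not measured.

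The first comparison asks how the levels differed between knockdown and wild-type cells, averaged over the 12 times. In total RNA, 7 of the 8 genes were called lower (adjusted p under 0.05 in limma, a linear model fitted across all genes), against 39.9% of 13188 genes called lower and 81.7% called in either direction. LMNA was not called without replicate 2 or over series means, and EMD, which was not called, passed without the 2 shallow libraries. In footprints all 8 were called lower, against 38.1% lower, 37.4% higher and 75.5% in either direction of 11189 genes, and EMD was not called under the authors' deposited scaling or over series means. The median difference of the 8 genes was -0.55 (log2) in total RNA and -0.45 in footprints, where the medians of all genes were 0.01 and -0.01. Because LMNB1 was picked for this contrast and the group was named with its results known, nothing is read from these counts. A lower value per M reads can come from fewer cells in which the gene is active or from less RNA in each cell, and these cannot be told apart in bulk samples.

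Among the lamins, LMNB1 differed most. Its wild-type total RNA spanned 206.5 to 252 CPM with a median of 227 CPM, and its knockdown total RNA spanned 84.3 to 131 CPM with a median of 117 CPM. Every knockdown library lay under every wild-type library. The difference was -1.04 ± 0.02 (log2 ± SE), which leaves 48.7% of the wild-type level.

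LMNB1 footprints stood further apart. They were 520 to 748 CPM (median 599) in wild-type and 138 to 294 CPM (median 220.4) in knockdown libraries, again without overlap, and the difference was -1.50 ± 0.03, or 35.5% of wild-type. As a B-type lamin, the LMNB1 protein keeps its farnesyl anchor in the membrane. Its gap to wild-type ranged over the day from -0.78 at CT12 to -1.39 at CT20 in total RNA and from -1.18 at CT12 to -2.07 at CT22 in footprints.

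LMNB2, the second B-type lamin gene, was lower by less. Its total RNA was 414 to 477 CPM (median 454) in wild-type and 261 to 331 CPM (median 296) in knockdown libraries, and its footprints were 258 to 354 CPM (median 315) and 189 to 256 CPM (median 218). The treatments did not overlap in either assay, although in footprints the highest knockdown library, at 255.6 CPM, came close to the lowest wild-type library, at 258.4 CPM. The differences were -0.61 ± 0.02 in total RNA and -0.49 ± 0.03 in footprints.

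LMNA, which encodes lamins A and C by splicing, differed little and unevenly. Its total RNA was 332 to 486 CPM (median 404) in wild-type and 309 to 409 CPM (median 365) in knockdown libraries, which overlapped, and only 2 of 24 knockdown libraries lay under the lowest wild-type one. The wild-type replicates formed 2 levels: replicate 1 spanned 332 to 392 CPM and replicate 2 spanned 416 to 486 CPM. The difference of -0.17 ± 0.04 was accordingly -0.05 between libraries numbered 1 and -0.29 between those numbered 2. Footprints of LMNA were 977 to 1335 CPM and 835 to 1060 CPM, a difference of -0.30 ± 0.03. Counts per gene do not separate lamin A from lamin C.

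The makeup of the lamin pool can be read as each gene's share of the reads of the 3 lamin genes. LMNB1 took 21.0% ± 1.58 (SD, n = 24) of lamin total RNA reads in wild-type and 14.5% ± 1.57 in knockdown cells, and 29.3% ± 2.91 against 15.7% ± 2.57 of lamin footprints. LMNA took 37.7% ± 2.52 and 47.3% ± 1.79 of the RNA reads and 55.7% ± 2.76 and 68.1% ± 2.70 of the footprints. The LMNB2 share moved from 41.2% ± 1.06 to 38.2% ± 1.44 in RNA and from 15.0% ± 0.877 to 16.1% ± 1.18 in footprints. These are shares of reads, not of molecules, since transcript lengths were not used.

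Of the membrane proteins that bind lamins and chromatin, TMPO differed most. TMPO encodes the LAP2 proteins, of which the alpha form is soluble and the others span the inner membrane, and counts per gene do not separate them. Its total RNA was 203 to 273 CPM (median 239.9) in wild-type and 74.6 to 138 CPM (median 116) in knockdown libraries. Its footprints were 252 to 363 CPM (median 298) and 89.4 to 174 CPM (median 134). Every knockdown library lay under every wild-type library in both assays, and the differences were -1.10 ± 0.03 and -1.20 ± 0.04. RefSeq lists TMPO-AS1 across TMPO on the other strand; it is not among the tables' genes, and whether counting used strand is not given in the sources used here, so its reads may be included.

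LBR, a receptor of B-type lamins and heterochromatin that is also a sterol reductase, overlapped between treatments. Its total RNA was 215 to 278 CPM (median 255) and 156 to 223 CPM (median 208), and 16 of 24 knockdown libraries were under the lowest wild-type library. The difference was -0.32 ± 0.03 in total RNA and -0.22 ± 0.03 in footprints, the latter -0.12 ± 0.03 under the deposited scaling. EMD, which encodes the LEM-domain protein emerin, was nearly level: 33.2 to 40.3 CPM (median 37.8) in wild-type and 30.03 to 54.2 CPM (median 35.1) in knockdown total RNA, a difference of -0.05 ± 0.04. Its knockdown mean was highest at CT14 and CT18, 43.2 and 44.5 CPM, the times of the 2 shallow libraries, and without those libraries the difference was -0.09. EMD footprints were 144 to 190.1 CPM and 135 to 175 CPM, with a difference of -0.14 ± 0.03, which was -0.04 ± 0.03 under the deposited scaling.

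The SUN-domain proteins bind nesprins in the space between the nuclear membranes. SUN1 total RNA was 105 to 128 CPM (median 111) in wild-type and 71.8 to 90.8 CPM (median 80.2) in knockdown libraries, with no overlap and a difference of -0.50 ± 0.02. SUN1 footprints overlapped, at 78.4 to 107 and 57.4 to 82.6 CPM, with a difference of -0.40 ± 0.03. SUN2 total RNA was 65.4 to 110.1 CPM (median 90.8) and 37.5 to 80.3 CPM (median 61.5), with 19 of 24 knockdown libraries under the lowest wild-type library. Its difference was -0.67 ± 0.04 in total RNA and -0.63 ± 0.06 in footprints, but these means hide a wide range over the day.

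The treatments were thus fully apart for 4 of the 8 genes in total RNA (LMNB1, LMNB2, SUN1 and TMPO) and for 3 in footprints (LMNB1, LMNB2 and TMPO). Over all genes tested, every knockdown library lay under every wild-type library in 9.96% of genes in total RNA and 5.66% in footprints. LMNB1 and TMPO were the members at least 2-fold lower, in both assays, a size reached by 2.59% and 3.41% of all genes. EMD lay below wild-type at 9 of 12 times in total RNA and 11 in footprints, and the other 7 genes at 12 of 12 in both assays.

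**Figure D1:**
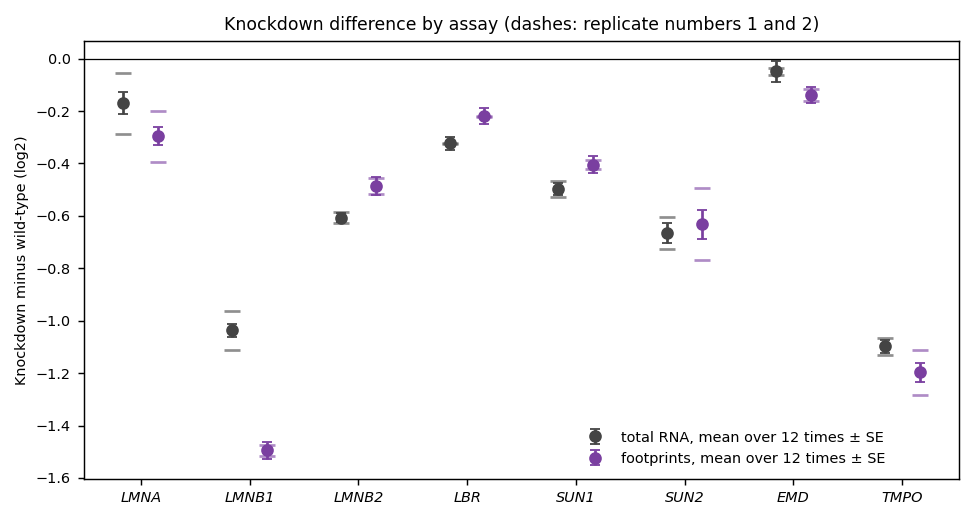
Knockdown minus wild-type difference (log2) of each gene on the vertical axis, as the mean over 12 times with its SE, in total RNA (grey) and footprints (purple); short dashes are the same difference for libraries numbered 1 and 2. LMNB1 and TMPO lie lowest, the 2 assays stand furthest apart for LMNB1 (-1.04 and -1.50), and the dashes of LMNA in total RNA lie at -0.05 and -0.29.

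The course over the day differed between the genes within the knockdown cells. SUN2 total RNA made a single broad wave. Its mean of 2 replicates was 39.4 CPM at CT00, 44.4 at CT02, 57.3 at CT04, 65.0 at CT06, 60.8 at CT08 and 68.1 at CT10. It was then 76.3 at CT12, 75.9 at CT14, 64.2 at CT16, 58.6 at CT18, 47.9 at CT20 and 41.1 CPM at CT22. The level at CT12 was far above that at either end of the day, and wild-type cells had 93.3 CPM at that time.

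The 2 replicates followed the same course, from 41.3 and 37.5 CPM at CT00 through 72.4 and 80.3 CPM at CT12 to 43.9 and 38.3 CPM at CT22. A cosine of 24 h gave an amplitude, the height from mean to peak, of 0.42 ± 0.04 (log2 ± SE) with the peak at CT 11.6, a fold of 1.79 from trough to peak. Footprints had 65.2 CPM at CT00, 121 CPM at CT12 and 69.3 CPM at CT22, an amplitude of 0.35 ± 0.04 and a peak at CT 11.4. With a linear drift added to the model the amplitudes were 0.42 and 0.36. A line can hardly change a wave that peaks in the middle of the sampled day, so nothing is read from this.

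In wild-type cells the 2 replicates of SUN2 total RNA took different courses. Replicate 1 had 78.0 CPM at CT00, 110.1 CPM at CT06, 87.2 CPM at CT14 and 104.9 CPM at CT22. Replicate 2 had 65.4 CPM at CT00, 98.5 CPM at CT12, 83.5 CPM at CT18 and 88.2 CPM at CT22, and without replicate 1 the wild-type amplitude was 0.16 (adjusted p = 0.0409, limma, peak at CT 12.7), against 0.07 with both (0.543) and 0.04 without replicate 2 (0.858). The mean of both had 71.7 CPM at CT00 and 83.9 CPM at CT02 and then stayed between 88.8 and 98.6 CPM. CT22, with a mean of 96.6 CPM, is next to CT00 on the circadian scale but was harvested 22 h later, and in both replicates it was above CT00. The gap of knockdown to wild-type was widest at CT22 (-1.23) and narrowest at CT14 (-0.24). In RefSeq, SUN2 overlaps GTPBP1, which is in the tables. GTPBP1 rose by 0.16 ± 0.03 in knockdown total RNA (adjusted p = 1.51e-05, limma), from 49.0 to 54.9 CPM, and its knockdown amplitude was 0.07 ± 0.04 with an adjusted p of 0.281. In footprints it rose by 0.21 ± 0.04. Its knockdown footprint rhythm did pass, with an amplitude of 0.12 ± 0.03 and a peak at CT 5.8 (adjusted p = 0.0407, limma).

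**Figure D2:**
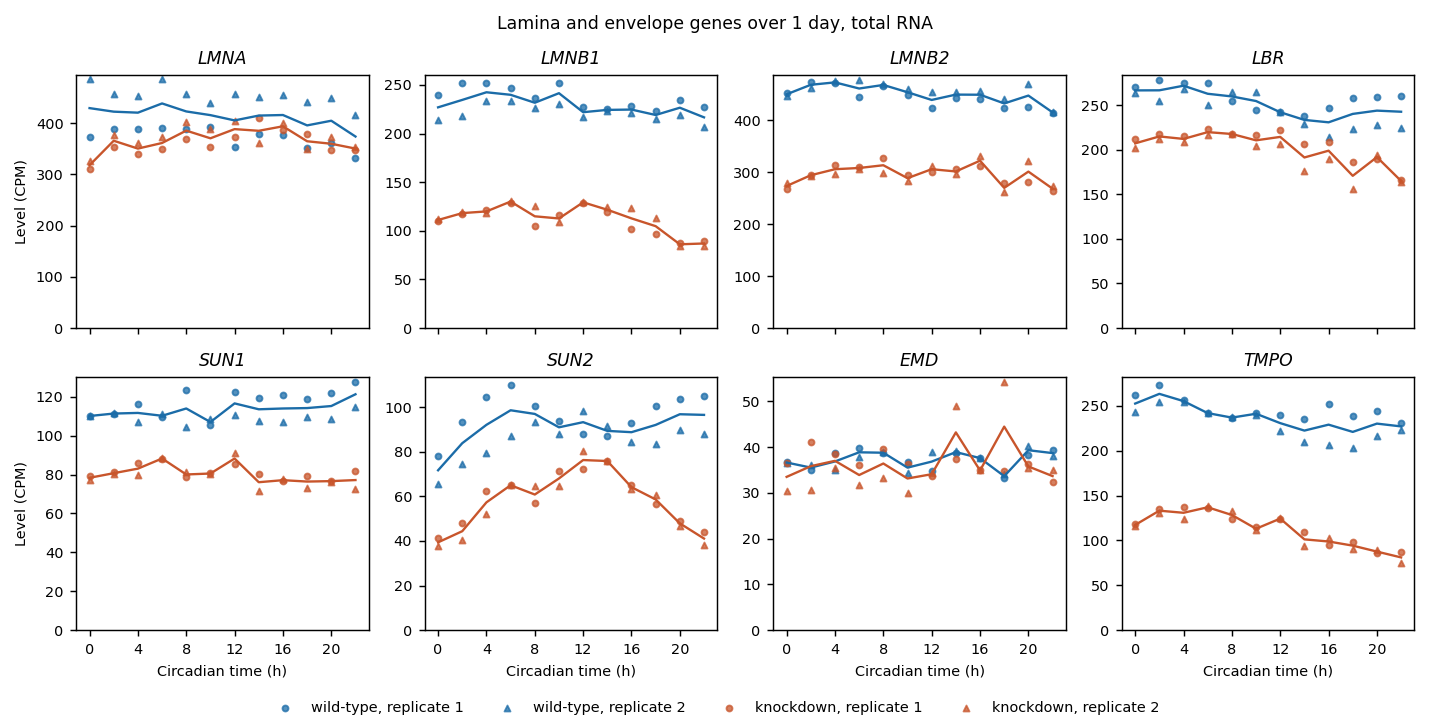
Total RNA level (CPM, axis from 0) of each gene against circadian time, with points for the libraries, circles and triangles for replicates 1 and 2, and lines for the means. The SUN2 knockdown line climbs from 39.4 to 76.3 CPM and returns to 41.1 CPM, the LMNB1 and TMPO knockdown points lie under all wild-type points, and the wild-type points of LMNA split by replicate.

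TMPO and LMNB1 took another shape in knockdown total RNA, high early and lowest at the end. TMPO went from 117 CPM at CT00 to 137 CPM at CT06, had 124 CPM at CT12 and ended at 81.1 CPM at CT22. LMNB1 went from 111 CPM at CT00 to 130.1 CPM at CT06 and 129 CPM at CT12, and had 86.1 CPM at CT20 and 87.0 CPM at CT22. Unlike SUN2, neither returned at CT22 to where it began. Their cosine amplitudes were 0.30 ± 0.04 (peak CT 6.5) for TMPO and 0.20 ± 0.04 (peak CT 8.6) for LMNB1, and a linear drift in the model took that of TMPO to 0.16 and that of LMNB1 to 0.17.

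Footprints repeated these courses with a deeper end for LMNB1, from 269 CPM at CT06 to 138 CPM at CT22. The footprint amplitudes were 0.29 ± 0.06 for LMNB1 and 0.32 ± 0.04 for TMPO. LBR followed with 0.15 ± 0.03 in total RNA (peak CT 7.1) and 0.16 ± 0.03 in footprints (peak CT 7.8), ending at 164.9 CPM from 219.7 CPM at CT06. The remaining 4 genes had amplitudes of at most 0.09 in both assays. In the same fits 33.9% of 12765 genes in total RNA and 18.2% of 10635 in footprints passed as rhythmic in knockdown cells.

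**Figure D3:**
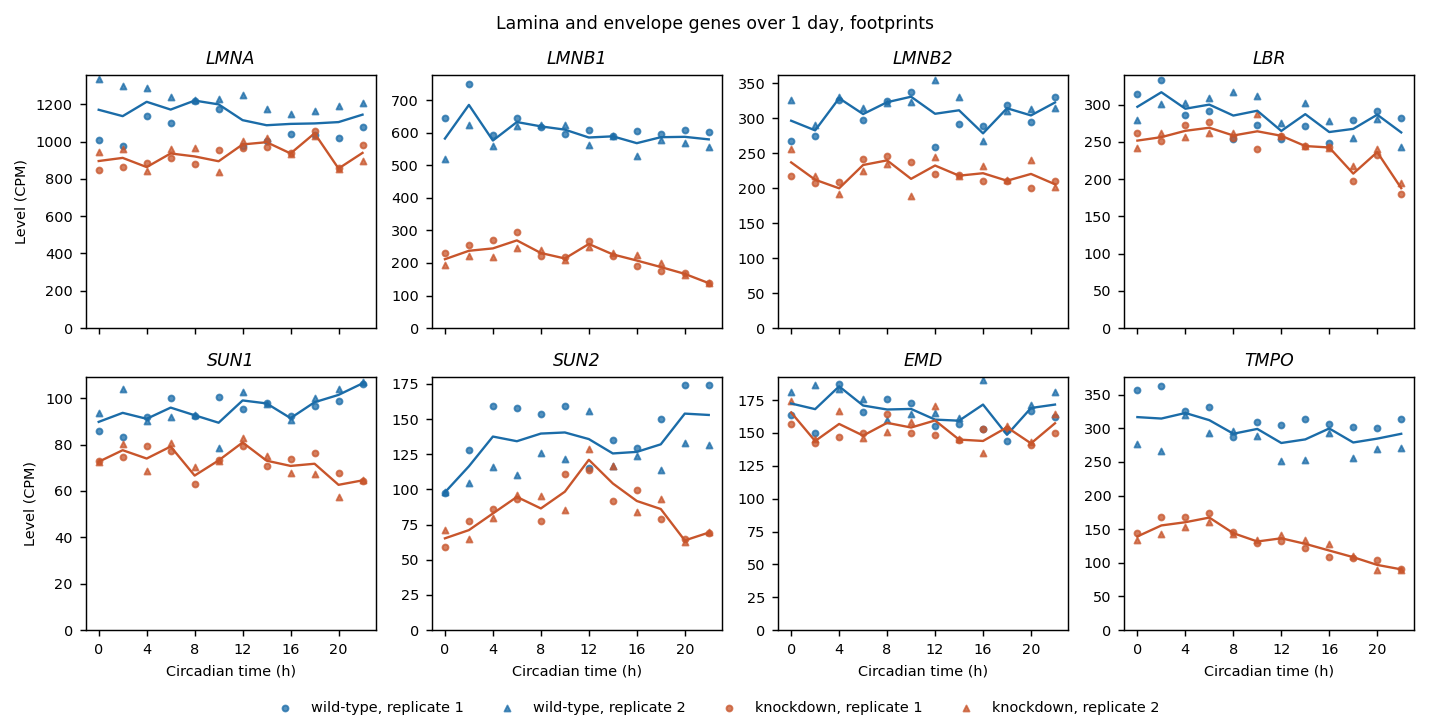
Footprint level (CPM, axis from 0) of each gene against circadian time, drawn as for total RNA. LMNB1 knockdown footprints end at 138 CPM, against 579 CPM in wild-type cells, and SUN2 knockdown footprints peak at 121 CPM at CT12.

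Cell cycle genes moved in the same libraries. All 25 of 25 S phase genes and 25 of 25 G2 and M phase genes were called lower in knockdown total RNA, against 39.9% of all genes. Their medians were -0.87 and -0.82 (log2) beside 0.01 for all genes. In footprints all 25 of each were called lower, against 38.1% of all genes, with medians of -0.96 and -0.85 beside -0.01. Both lists were chosen with results of these data known. CCNE2, the cyclin of S phase entry, fell by 1.50 ± 0.05 and the helicase subunit MCM6 by 1.42 ± 0.04. The cyclin gene CCNA2 fell by 1.12 ± 0.03, and NUSAP1, a spindle protein, by 1.09 ± 0.03. Within knockdown total RNA the mean of the G2 and M genes was highest at CT06, at 7.18 (log2 CPM), and lowest at CT22, at 6.24.

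Across the 12 time means of knockdown total RNA, LMNB1 had a Pearson correlation of 0.96 with the mean of the G2 and M genes, TMPO 0.92, LBR 0.83, SUN1 0.69, SUN2 0.57, LMNB2 0.53, LMNA 0.25 and EMD -0.02. With the S phase mean the values were 0.75 for LMNB1, 0.93 for TMPO, 0.79 for LBR and -0.01 for SUN2. These points come from the same libraries and share their depth and scaling, so the correlations only describe the shapes. Whether the share of dividing cells accounts for any of the differences was not tested.

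**Figure D4:**
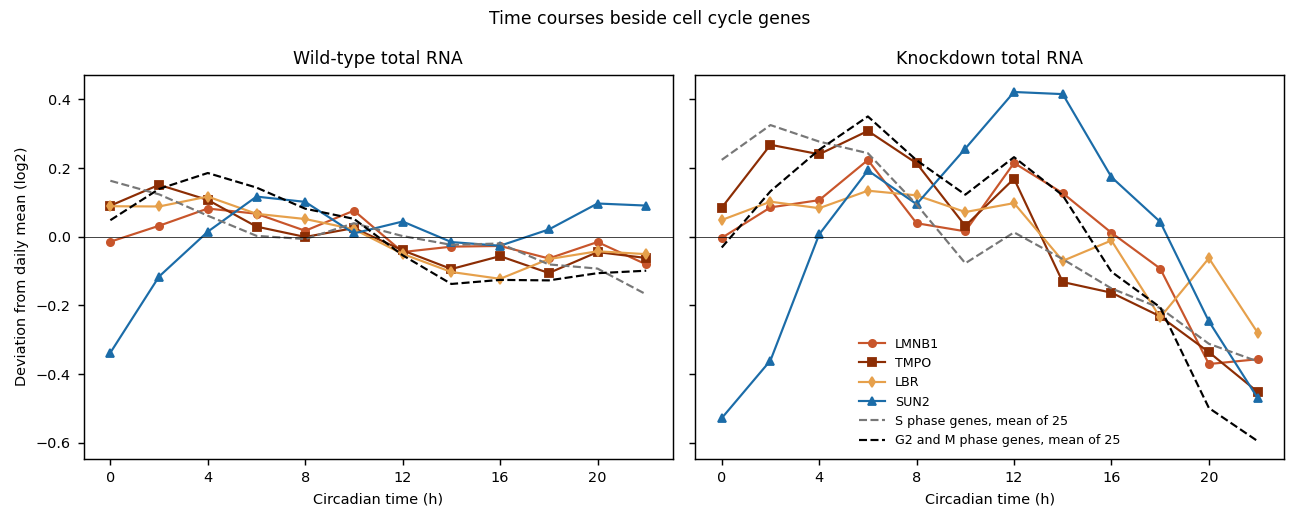
Deviation of each time from the daily mean (log2) against circadian time in wild-type (left) and knockdown (right) total RNA, for 4 genes (solid) and for the means of 25 S phase and 25 G2 and M phase genes (dashed). In knockdown cells LMNB1, TMPO and LBR run with the dashed lines to their low point late in the day, while SUN2 peaks at CT12, and the wild-type curves are flatter apart from the low SUN2 value at CT00.

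The genes whose courses were most like each member were ranked by the Pearson correlation over 24 treatment-by-time means of total RNA, each centred on its treatment mean, among 10171 genes. For LMNB1 they were the mitotic kinesin KIF4A (0.96), the centromeric histone CENPA (0.96) and GTSE1 (0.95). For TMPO they were the condensin subunit NCAPG (0.98), the mitotic kinase CDK1 (0.98) and the ribonucleotide reductase subunit RRM1 (0.98). For LBR they were TAF5 (0.96), the checkpoint protein BUB3 (0.95) and the nucleoporin NUP35 (0.94).

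SUN2 had other neighbours, SAPCD2 (0.94), TNFAIP8L1 (0.93) and HMGB3 (0.89). LMNA lay nearest TXLNA (0.85), ING5 (0.85) and C9orf114 (0.82), LMNB2 nearest KCNK5 (0.90), DCPS (0.85) and BCL2L12 (0.84), and SUN1 nearest CEP192 (0.81), CPSF3 (0.80) and COA1 (0.80). EMD lay nearest GSK3A (0.90), RNF44 (0.87) and CREBBP (0.86), a ranking that includes the shallow libraries. Within the group itself, LBR and TMPO were closest (0.88 over 24 points, 0.90 in either treatment alone), followed by LMNB1 and TMPO (0.82), while SUN1 and SUN2 had 0.36.

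In wild-type cells, where no member was chosen for its course, 2 of the 8 genes passed as rhythmic in total RNA, against 22.5% of 12682 genes. LBR total RNA was highest at CT04, with 272 CPM, and lowest at CT16, with 231 CPM. Its amplitude was 0.10 ± 0.02 (log2) with the peak at CT 4.1 (adjusted p = 0.00603, limma). TMPO was highest at CT02, with 263.5 CPM, and lowest at CT18, with 221 CPM, an amplitude of 0.09 ± 0.02 with the peak at CT 3.7 (adjusted p = 0.0213).

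Both amplitudes are small, a fold of 1.15 for LBR and 1.13 for TMPO from trough to peak. A linear drift over the day ended both calls (adjusted p = 0.91 and 0.9997), and TMPO did not pass without replicate 2 (adjusted p = 0.262). In the same fit 21 of 25 G2 and M genes and 5 of 25 S phase genes passed, against 22.5% of all genes tested. Across the 12 times the correlation with the G2 and M mean was 0.95 for LBR and 0.89 for TMPO. It was 0.84 for LMNB1, 0.76 for LMNB2, 0.66 for LMNA, -0.09 for EMD, -0.14 for SUN2 and -0.59 for SUN1. These values only describe shared libraries.

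The other 6 genes did not pass in wild-type total RNA. LMNB1 (0.05 ± 0.02, adjusted p = 0.119) and LMNB2 (0.05 ± 0.02, adjusted p = 0.114) passed once the replicate series was a block in the fit, with adjusted p = 0.012 and 0.0415, and the numbers do pair these libraries. SUN2 had 0.07 ± 0.05 (adjusted p = 0.543) but passed without replicate 1 (0.16, adjusted p = 0.0409). LMNA, SUN1 and EMD had amplitudes of 0.05, 0.04 and 0.01 with adjusted p of 0.694, 0.438 and 0.974.

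In wild-type footprints none of the 8 passed in limma or in edgeR, and 1 had an unadjusted p under 0.05, against 7.01% of 10736 genes that passed. The amplitudes ran from 0.04 for LMNB2 to 0.08 for LBR, with adjusted p from 0.224 to 0.841. LBR, TMPO and LMNB1 footprints peaked at CT 4.2, 3.5 and 5.3, beside CT 4.1, 3.7 and 6.5 in total RNA. Whether the rhythm differed between footprints and total RNA was tested as an interaction. None of the 8 passed in limma or in edgeR, against 0.0748% of 10693 genes that passed in limma. No member had an unadjusted p under 0.05. The wave of the difference between assays, which also holds any shift in peak time, was largest for EMD, with an amplitude of 0.07 ± 0.04.

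Translational efficiency, the log2 ratio of footprints to total RNA, separated the members widely in wild-type cells. EMD stood highest at 2.16 ± 0.11 (SD, n = 24), at the 98.1st percentile of 11149 genes. LMNA had 1.47 ± 0.09 (percentile 94.8) and LMNB1 had 1.39 ± 0.08 (94.0), and these neighbours differed by less than the SD of LMNA. SUN2 followed at 0.53 ± 0.12 (74.8), TMPO at 0.32 ± 0.10 (66.4), LBR at 0.18 ± 0.11 (60.3), SUN1 at -0.25 ± 0.12 (42.6) and LMNB2 at -0.55 ± 0.13 (32.2). The median of all genes was -0.07.

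The 3 lamins were thus far apart: the lowest LMNA and LMNB1 libraries, at 1.33 and 1.24, lay well above the highest LMNB2 library, at -0.33. Footprints come from the coding sequence and total RNA reads from the whole transcript, so the order between genes also holds the length of each untranslated region, whose part was not tested. A comparison of 1 gene between treatments holds its length fixed unless its isoforms change.

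In knockdown cells the efficiency of LMNB1 was 0.93 ± 0.13 (SD, n = 24; percentile 87.0), with libraries from 0.63 to 1.19. The wild-type libraries spanned 1.24 to 1.57, so the treatments did not overlap. How many of all genes stand apart in this way in efficiency was not counted, so nothing is read from it. The difference was -0.46 ± 0.04 (log2 ± SE), given as a description since both of its parts chose the gene. The other 7 genes were also taken with both parts of this difference in view, so their test results are descriptions too. Among these 7 genes, 2 passed the test of a changed efficiency, both upward. Of 11149 genes, 31.1% passed in either direction and 13.1% in that direction, and nothing is read from the count.

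LMNB2 rose by 0.12 ± 0.04 (adjusted p = 0.0114, limma), from -0.55 ± 0.13 to -0.43 ± 0.11, and LBR rose by 0.10 ± 0.04 (adjusted p = 0.0343), from 0.18 ± 0.11 to 0.28 ± 0.10. In both genes the libraries of the treatments overlapped. Neither passed without replicate 1 (adjusted p = 0.156 and 0.104) or over series means (0.121 and 0.249). LBR also did not pass without replicate 2 (0.235) or without the shallow libraries (0.0757).

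SUN1 had 0.09 ± 0.04 (adjusted p = 0.0635), LMNA -0.13 ± 0.06 (0.0791), TMPO -0.10 ± 0.05 (0.101), EMD -0.09 ± 0.05 (0.184) and SUN2 0.03 ± 0.07 (0.752). With a replicate block LMNA, SUN1 and TMPO passed too (adjusted p = 0.0131, 0.0478 and 0.0492). That block takes the shift between replicate numbers within an assay as shared by wild-type and knockdown cells. Libraries of 1 number deviated together across treatments in only 2 of 12 times in total RNA and 4 of 12 in footprints. The 95% intervals, which are not adjusted for the number of genes, were 0.02 to 0.17 for SUN1 and -0.24 to -0.02 for LMNA. They were -0.19 to -0.01 for TMPO, -0.19 to 0.01 for EMD and -0.10 to 0.17 for SUN2. Under the authors' deposited scaling the median of all genes moved from -0.01 to 0.09, and 80.4% of the called genes were higher in place of 42.1%. That scaling turned EMD to 0.01 and TMPO to 0.00, took LMNA to -0.02, SUN2 to 0.14, LMNB2 to 0.22 and LBR to 0.21, and left LMNB1 at -0.36. SUN1 passed under it at 0.19 and under median-ratio scaling at 0.11 (adjusted p = 0.0262).

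**Figure D5:**
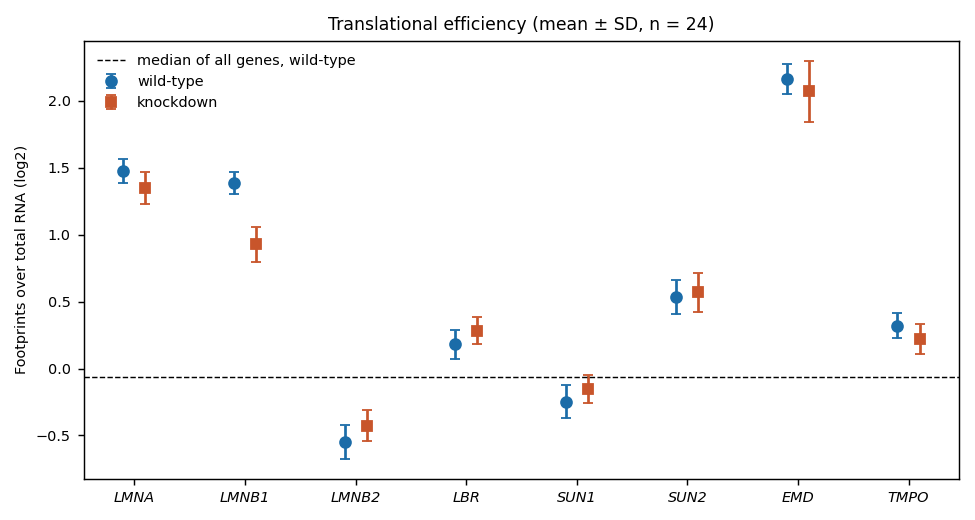
Translational efficiency (log2 of footprints over total RNA) of each gene as mean ± SD over 24 libraries in wild-type (circles) and knockdown (squares) cells; the dashed line is the wild-type median of all genes, at -0.07. LMNB1 is the gene whose error bars are furthest apart, 1.39 and 0.93, and LMNB2 lies lowest of the 3 lamins in both treatments.

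The rest of the nuclear envelope changed in both directions in knockdown total RNA. Of the LINC complex and torsin genes, 11 of 13 were tested, and 5 rose and 5 fell (median 0.09). The giant nesprin SYNE2 fell by 1.27 ± 0.04, from 94.04 to 38.8 CPM, and SUN3 fell by 0.54 ± 0.02, with a larger fall of 1.21 ± 0.04 in footprints. The nesprin SYNE1 rose by 0.38 ± 0.03 and TOR2A by 0.48 ± 0.06.

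Among 12 genes of LEM-domain, BAF and other inner membrane proteins, 4 rose and 7 fell (median -0.23). TMEM194A (NEMP1) fell by 0.87 ± 0.03 and BANF1, the DNA-bridging factor BAF, by 0.34 ± 0.04. TMEM194B (NEMP2) rose by 0.76 ± 0.04 and TMEM43 by 0.30 ± 0.03. Of 31 nucleoporins, 23 fell and 4 rose (median -0.20). NUP210, a membrane nucleoporin, fell by 1.04 ± 0.05 and NUPL1 by 0.66 ± 0.02, while RAE1 rose by 0.24 ± 0.02 and POM121, which has near-identical copies and is uncertain, by 0.47 ± 0.07.

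Of 11 genes that process or modify lamins, 6 fell and 3 rose (median -0.31). CDK1, which phosphorylates lamins at mitosis and also stands in the G2 and M list, fell by 0.76 ± 0.04. The farnesyltransferase subunit FNTB fell by 0.68 ± 0.10 from 2.02 CPM, while its partner FNTA rose by 0.15 ± 0.03 and the CAAX protease RCE1 by 0.30 ± 0.05. Of 12 lamin-bound chromatin proteins and partners of LBR, 6 fell and 4 rose (median -0.12). The HP1 proteins CBX5 and CBX1 fell by 0.70 ± 0.03 and 0.53 ± 0.02, and ZBTB7B and SIRT6 rose by 0.59 ± 0.03 and 0.39 ± 0.05.

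Genes of p53 and senescence rose in 13 of 14 tested cases of 16 listed (median 1.13), with CDKN1A, the cyclin kinase inhibitor p21, up by 1.81 ± 0.04, from 213 to 749 CPM. IL8 rose by 2.96 ± 0.29, with means of 0.985 and 33.9 CPM, and HMGB1 fell by 0.48 ± 0.03. The IL8 means lie further apart than that log2 difference, so its libraries were uneven. Of 12 actin and mechanical response genes, 9 rose and 2 fell (median 0.29). ACTA2 rose by 2.33 ± 0.05 and TAGLN by 1.00 ± 0.03, while YAP1 and ACTG1 fell by 0.20 ± 0.02 and 0.18 ± 0.02; ACTG1 and HMGB1 have processed copies in the genome, which makes their values uncertain. These lists were chosen with results of these data known, and with 41.8% of all genes called higher and 39.9% lower, counts like those of the LINC genes lie near the background.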

How the data were processed

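Gene counts came from STAR 2.3.0e alignments to GRCh37 (hg19), counted with HTSeq 0.5.4p1 and normalised with DESeq2, per the submitters' processing notes. The deposited values are a normalised signal that the authors made by dividing gene counts by 1 factor per library. In the 8 tables, 100% of values were whole multiples of a library's own step (tolerance 0.001 read), which gave back the reads. These were scaled by TMM (edgeR 4.0.16) and filtered with filterByExpr (minimum count 10). The main test was limma-trend (limma 3.58.1, R 4.3.3, robust empirical Bayes) on log2(CPM + 0.25), adjusted over all genes by Benjamini-Hochberg and called at 0.05; fold changes are on that scale. edgeR's quasi-likelihood test and DESeq2 1.42.0 on recovered reads were alternatives, as were other scalings, pseudocounts, filters, left-out replicates and libraries, a replicate block and a linear drift.

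The knockdown effect is the mean over 12 times, rhythms are F tests of a cosine and sine of 24 h, and efficiency is tested as an interaction; the fits take libraries as independent. Scripts were tested on simulated data. Members, lists and tests were chosen with earlier results of these data known. The text names the 8 members, the 3 genes most like each, and the 2 largest rises and falls of each list. Whether replicates were separate cultures is not given in the sources used here, and the p-values cover no more than the spread among these libraries, possibly technical. Of 19438 genes, 790 had no read. In wild-type total RNA, libraries of 1 number deviated together in 66 of 66 pairs of times (0.45 to 0.81) and with their footprints in 12 of 12 (0.25 to 0.47), so the numbers pair them. Replicates differed beyond counting error, which is all that read depth limits.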

Additional observations from a re-analysis of the deposited data

Results flagged for a closer look

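LMNB2 and LBR were called for a difference between assays in their knockdown effect. Both assays were in view when the genes were chosen, so these calls are descriptions. For LMNB2 the footprint effect minus the total RNA effect was 0.121 (log2), and for LBR it was 0.104, so in both genes the footprints were reduced by less than the total RNA. The calls did not hold throughout: without replicate 1 LMNB2 had 0.110 (adjusted p = 0.156) and LBR 0.100 (0.104), without replicate 2 LBR had 0.115 (0.235), without the 2 shallow libraries LBR had an adjusted p of 0.0757, and over series means neither passed (0.121 and 0.249). The cause was not tested.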

How the results depend on the processing

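The knockdown effect was called for 10778 genes in total RNA and 8444 in footprints, and for 7733 and 6609 over series means; in both assays each member stayed lower under every alternative tried. The efficiency effect was called for 3465 genes, 1928 over series means and 1867 to 2556 without 1 replicate number. Of the 7 members tested, 2 were called, but 0 over series means, 1 without the 2 shallow libraries, 5 with the replicate block and 0 to 1 without 1 replicate number. EMD and TMPO changed sign to 0.012 and 0.0019 under the deposited scaling, and SUN2 went from 0.03 to -0.033 without replicate 2 and 0.11 without replicate 1; the cause was not tested. Knockdown rhythms numbered 4323 in total RNA and 1932 in footprints, 588 and 262 with a linear drift, and 1197 to 1957 and 460 to 796 with 1 replicate number. Wild-type total RNA rhythms numbered 2855, 4830 with the replicate block, 25 with a drift and 1622 to 2693 with 1 replicate number. The 2 members called became 4, 0 and 1 to 3 in turn. Wild-type footprint rhythms numbered 753, then 1337 with the block, 7 with a drift and 141 to 497. Wild-type efficiency rhythms numbered 8, then 57 with the block, 15 under the deposited scaling, 3 without the filter, 0 with a drift and 0 to 26. Libraries of 1 number deviated together (correlation over 0.1) in 59 of 66 pairs of times in wild-type footprints, 19 of 66 in knockdown total RNA and 14 of 66 in knockdown footprints. They did so in 8 of 12 times for knockdown total RNA with footprints, and for wild-type with knockdown in 2 of 12 in total RNA and 4 of 12 in footprints. As not every pair did, these were not taken as paired in the main fits. The SDs and ranges of efficiency do match footprints to total RNA by number and time, in both treatments. Those of knockdown cells therefore depend on that matching, while their means do not. A day of sampling does not separate a rhythm from a drift, and footprints rest on fewer reads than total RNA.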
